A study of Mus musculus with 4 samples.

Results

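The genes described here are 9 genes of homologous recombination repair and its neighbouring steps, namely Brca1, Brca2, Rad54l, Xrcc2, Xrcc3, Fancd2, Blm, Rpa1 and Parp1. They were chosen by name, as every probe that carries 1 of these gene names and is not a control, and they make up 9 of the 14335 gene names tested and 17 of the 41174 probes on the array. Their levels were compared between 2 Ip6k1+/+ and 2 Ip6k1-/- lines of mouse embryonic fibroblasts (MEFs), each hybridized to 1 single-colour Agilent array. Each line came from a different embryo of embryonic day 14, and all 4 embryos were littermates of 1 cross between heterozygous mice. All lines, including the controls, had been immortalised with SV40 large T antigen, a viral protein that binds p53 and the retinoblastoma protein, and were growing exponentially without any DNA-damaging treatment. A level is therefore the mRNA of undamaged, immortalised cells, and 2 lines per genotype limit the precision of every value.

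Homologous recombination repairs a broken chromosome by copying the intact sister chromatid, and so works mainly in cells that replicate their DNA. The broken ends are trimmed to single strands, which RPA coats and protects, and with the help of BRCA2 a strand then invades the matching sequence. IP6K1, the enzyme that makes the inositol pyrophosphate IP7 from IP6, is known to take part in this repair, so the comparison asks whether the mRNA of the repair genes differs where it is lost.

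The targeted gene was examined first. Probes A_51_P213766 and A_52_P413035 of Ip6k1 share 40 of their bases, shown in capitals because they make the pair a single readout of the gene, and lie at chr9:107948209-107948268 and chr9:107948229-107948288 of mouse build mm9 on the plus strand.
Ip6k1 A_51_P213766: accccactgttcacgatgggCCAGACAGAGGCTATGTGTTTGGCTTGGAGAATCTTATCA
Ip6k1 A_52_P413035: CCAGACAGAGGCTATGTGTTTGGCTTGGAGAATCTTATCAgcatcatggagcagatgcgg
On the log2 scale, where 0 marks the 75th percentile of the signal on the same array, A_51_P213766 read 0.35 and 0.39 in Ip6k1+/+ MEFs. In both Ip6k1-/- lines it was not well above background, at -6.88 and -6.80. Ip6k1+/+ MEFs were thus at least 34.0-fold higher on this probe and at least 32.7-fold higher on its overlapping partner, with an adjusted p of 0.036 on each (limma with Benjamini-Hochberg adjustment). This call was lost under normexp background correction, quantile normalization and no filter on dim probes (adjusted p from 0.0756 to 0.243), and with any 1 line left out (from 0.266 to 0.697). Such a bound sets the Ip6k1+/+ mean against the lowest signal that was well above background on each Ip6k1-/- array. The further Ip6k1 probe, A_51_P103718, read 2.46 and 2.61 against -1.98 and -1.23 in Ip6k1-/- lines, and differed by -4.13 (limma adjusted p = 0.368, standard error 0.33). All 3 probes thus went with the genotype labels. The raw signal at the 75th percentile ran from 610 to 747 over the 4 arrays, and the share of probes well above background from 52.0% to 55.5%. Of 10 fibroblast markers, 9 were measured in every line, among them Col1a1, saturated in 4 lines, and Vim, saturated in 3. Of the 9, 3 (33.3%) were lower in both Ip6k1-/- lines than in both Ip6k1+/+ lines, beside 12.6% of all probes. Higher in both were 0 of the 9, beside 18.8% of all probes. Among the 3 was the receptor gene Pdgfrb, at 3.34 and 3.39 against 4.67 and 4.45, which was picked after its values were seen. By the genotype means, 5 of the 9 were higher in Ip6k1-/- MEFs and 4 were lower. The 5 were Thy1 and the saturated Col1a1, Col1a2, S100a4 and Vim, whose direction cannot be read at the ceiling of the signal. Of 26 markers of epithelial, endothelial, haematopoietic, muscle and neural cells, 14 were well above background in no line, among them Ptprc, Pecam1, Cdh5, Cdh1 and Myod1, and 8 in every line. These 8 were Krt18 and Krt19 (epithelial), Kdr (endothelial), Cd68 and Cd14 (haematopoietic) and Tubb3, Map2 and Nes (neural). Their summed signal, in multiples of the 75th percentile, was 13.4 and 15.4 in Ip6k1+/+ lines and 13.9 and 20.5 in Ip6k1-/- lines, against 494 to 571 for the fibroblast markers. Saturation caps the fibroblast sum, since Col1a2 and S100a4 were also saturated in 4 lines. It also limits what the saturated markers can show of a separation between the genotypes, so the counts out of 9 rest mainly on the others. The sum does not show differences between lines. Thy1 read 1.41 and 6.02 in Ip6k1+/+ lines and 3.98 and 5.52 in Ip6k1-/- lines, and Pdgfra 0.20 and -2.19 against -1.08 and -2.33. Kdr and Cd68 were higher in both Ip6k1-/- lines than in both Ip6k1+/+ lines and Cd14 was lower, with Kdr at -2.94 and -1.59 against -3.66 and -3.99. The part of these markers in the results was not tested.

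All 9 members were expressed in all 4 lines, and none differed between the genotypes in the test. Of the 17 member probes, 13 were well above background in every line and entered the test, 2 were well above background in 1 line of each genotype, and 2 in no line. With the adjusted p of limma set at 0.05 or less (Benjamini-Hochberg over 21573 probes), 0 of the 13 were called, beside 0.0139% of all probes tested. At an unadjusted p of at most that level the count was again 0, beside 3.34% of all probes. No member passed the 2-fold cutoff, which asks for a mean difference of 1 on the log2 scale and for 0.9 or more in both Ip6k1-/- lines, and which 3.15% of all genes passed. Taking the brightest tested probe of each gene, the median difference of the 9 members was 0.18, from -0.19 for Fancd2 to 0.45 for Rad54l, and 7 of the 9 were higher in Ip6k1-/- MEFs. The median was -0.0049 without Ip6k1+/+ replicate 1, -0.0087 without Ip6k1-/- replicate 2, 0.33 without Ip6k1+/+ replicate 2 and 0.29 without Ip6k1-/- replicate 1, so that its size and sign rested on single lines. Over all genes tested the median difference was 0.04 and 55.0% were higher. The median size of the difference, without its sign, was 0.19 for the members and 0.23 for all genes.

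**Figure D1:**
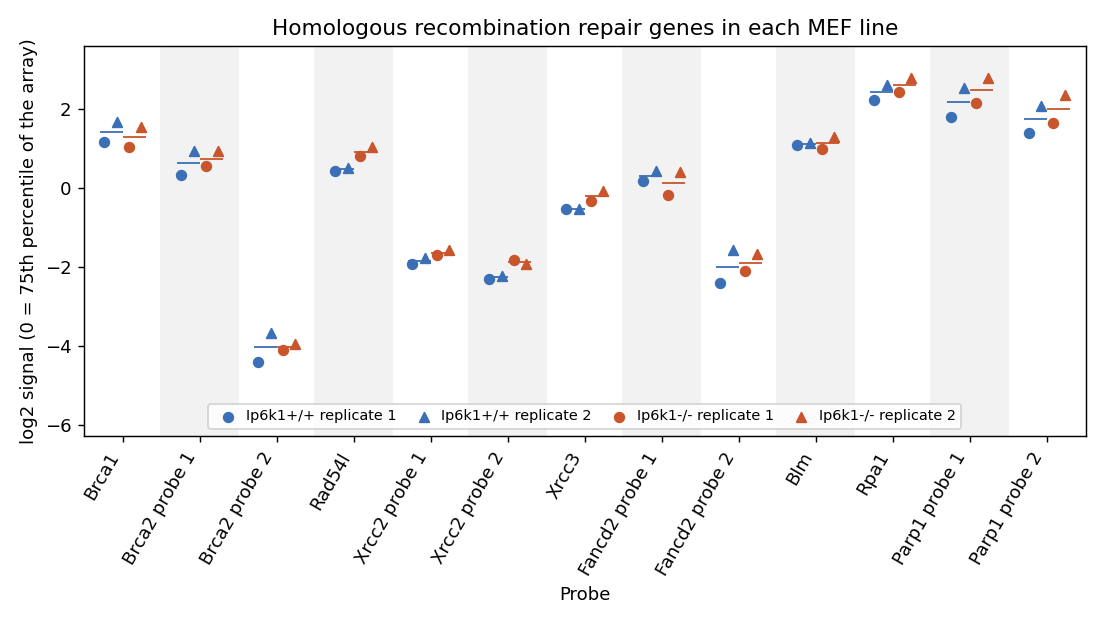
Log2 signal of the 13 member probes tested (vertical axis, 0 = 75th percentile of the array), with circles for replicate 1, triangles for replicate 2, blue for Ip6k1+/+, orange for Ip6k1-/- and a short line for each genotype mean. Both Ip6k1-/- lines lie above both Ip6k1+/+ lines for Rad54l, both Xrcc2 probes and Xrcc3, and the genotypes overlap for the other 9 probes; heights of different probes are not comparable.

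The order of the lines was not the same on every member probe. For 4 of the 13 probes (30.8%), those of Rad54l, Xrcc2 (2 probes) and Xrcc3, both Ip6k1-/- lines lay above both Ip6k1+/+ lines, as for 18.8% of all probes. For 0 of the 13 did both Ip6k1-/- lines lie below, as for 12.6% of all probes. For the other 9 probes the genotypes overlapped. Since 2 of the 4 separated probes belong to 1 gene, the count rests on 3 genes. Whether it exceeds the share of all probes was not tested.

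Rad54l showed the largest difference among the members. It encodes a DNA translocase of the SWI2/SNF2 family that works during strand invasion. Its measured probe, A_51_P108767 at chr4:115771106-115771165 on the minus strand, is shown because it carries this difference, and no base is in capitals.
Rad54l A_51_P108767: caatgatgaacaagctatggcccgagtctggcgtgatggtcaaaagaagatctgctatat
Its Ip6k1+/+ lines read 0.44 and 0.50, and its Ip6k1-/- lines 0.80 and 1.03. The Ip6k1+/+ lines lay close together, and the lower Ip6k1-/- line stood above both. The difference of 0.45 (standard error 0.23), or 1.37-fold, had a 95% interval from -0.14 to 1.04, an unadjusted p of 0.107, the smallest among the members, and a limma adjusted p of 0.993. The other Rad54l probe, A_52_P431920, was well above background in no line and gives no second reading.

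Xrcc2 and Xrcc3 encode accessory proteins of strand invasion. Xrcc2 was read by a pair of probes on chromosome 5 that do not overlap. Probe A_52_P197772 (25196044 to 25196103) read -1.94 and -1.77 in Ip6k1+/+ lines and -1.71 and -1.57 in Ip6k1-/- lines, a difference of 0.22 (standard error 0.29, 95% interval -0.53 to 0.96). Probe A_52_P662752 (25197876 to 25197935) read -2.31 and -2.23 against -1.83 and -1.92, a difference of 0.39 (standard error 0.29, 95% interval -0.36 to 1.15). The genotypes were separate on both probes, though on the first by a narrow margin, between the higher Ip6k1+/+ line and the lower Ip6k1-/- line. A further 2 Xrcc2 probes, which the array ties to the cDNA clone AK085093, were dim. Of these, A_52_P552160 was well above background in 1 line of each genotype and A_52_P510694 in none. Xrcc3, on 1 probe (A_51_P197043, chr12:113041620-113041679), read -0.53 and -0.54 in Ip6k1+/+ lines and -0.33 and -0.08 in Ip6k1-/- lines. The Ip6k1+/+ lines were nearly equal, both Ip6k1-/- lines lay above them, and the difference was 0.33 (standard error 0.25, 95% interval -0.33 to 0.99, limma adjusted p = 0.993). On all 4 probes the direction was the same in every setting tried, yet each interval includes 0. Because the genotypes were separate on these probes, leaving out 1 line could not change the direction, so those settings add no support.

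**Figure D2:**
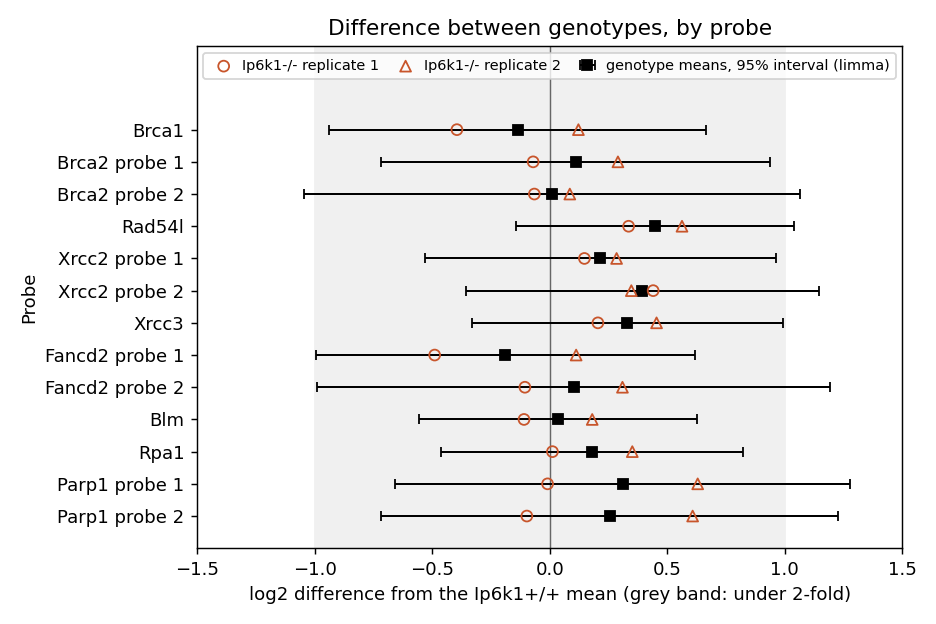
Log2 difference between the genotype means for each member probe (black squares, Ip6k1-/- minus Ip6k1+/+), with 95% intervals from limma, and each Ip6k1-/- line against the Ip6k1+/+ mean (open orange symbols). All 13 intervals include 0, and 7 of them lie wholly within the grey band of less than a 2-fold difference, as do 42.6% of all probes tested.

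Brca2 and Brca1 overlapped between the genotypes. BRCA2 acts on the single-stranded DNA before strand invasion, and BRCA1 acts earlier, with BARD1, in directing broken ends to this repair. For Brca2, probe A_51_P451106 at chr5:151372225-151372284 read 0.33 and 0.94 in Ip6k1+/+ lines and 0.57 and 0.93 in Ip6k1-/- lines, a difference of 0.11 (standard error 0.32, 95% interval -0.72 to 0.94). The Ip6k1-/- lines lay inside the range of the Ip6k1+/+ lines. Its other probe, at chr5:151325787-151325846, covers the start of the coding sequence and is shown for that reason, with the start codon in capitals.
Brca2 A_52_P513394: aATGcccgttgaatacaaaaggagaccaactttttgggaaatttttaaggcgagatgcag
It read -4.41 and -3.67 against -4.10 and -3.95, again with the Ip6k1-/- lines inside the Ip6k1+/+ range, and differed by 0.01 (standard error 0.40, 95% interval -1.04 to 1.07). Brca1 read 1.18 and 1.67 in Ip6k1+/+ lines and 1.03 and 1.55 in Ip6k1-/- lines on probe A_51_P475523 (chr11:101350409-101350468). The difference was -0.14 (standard error 0.31, 95% interval -0.94 to 0.67), smaller than the gap between the lines of either genotype. A second Brca1 probe, A_52_P18267, spans 4037 bases of the genome with its 60 bases and so crosses at least 1 intron. It was well above background in 1 line of each genotype and was not tested.

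Fancd2 encodes the protein that is ubiquitinated and placed on DNA when the Fanconi anaemia pathway meets a crosslink. Probe A_52_P66205 (chr6:113546853-113546912) read 0.18 and 0.42 in Ip6k1+/+ lines and -0.19 and 0.41 in Ip6k1-/- lines, a difference of -0.19 (standard error 0.31). Probe A_52_P556462 (chr6:113541170-113541229) read -2.42 and -1.57 against -2.10 and -1.68, a difference of 0.10 (standard error 0.42, 95% interval -0.99 to 1.19). The pair of probes differed in sign, and the genotypes overlapped on both. Blm, the helicase that dissolves joined recombination intermediates, varied least, at 1.08 and 1.13 in Ip6k1+/+ lines and 0.99 and 1.28 in Ip6k1-/- lines (A_51_P314418, chr7:87600243-87600302). Its difference was 0.04 (standard error 0.23, 95% interval -0.55 to 0.63), an interval well inside a 2-fold difference. Rpa1, the large subunit of the single-strand binding protein, read 2.24 and 2.61 against 2.44 and 2.78 (A_51_P333159, chr11:75114060-75114119), a difference of 0.18 (standard error 0.25, 95% interval -0.46 to 0.83).

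Parp1 encodes the polymerase that marks DNA breaks with poly(ADP-ribose), a step that recruits other repair proteins. Its 2 probes are shown because they share 40 bases, in capitals, and so are not independent readings. They lie at chr1:182530341-182530639 and chr1:182530321-182530619, where 60 bases of each spread over 299 bases of the genome and so cross at least 1 intron.
Parp1 A_51_P314277: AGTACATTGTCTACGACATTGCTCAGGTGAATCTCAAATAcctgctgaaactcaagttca
Parp1 A_51_P314273: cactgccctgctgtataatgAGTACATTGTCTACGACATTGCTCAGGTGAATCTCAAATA
The first read 1.79 and 2.55 in Ip6k1+/+ lines and 2.16 and 2.80 in Ip6k1-/- lines, a difference of 0.31 (standard error 0.37, 95% interval -0.66 to 1.28). The second read 1.40 and 2.08 against 1.64 and 2.35, a difference of 0.26 (standard error 0.37). On both, 1 line of each genotype was high and the other low, and Parp1 had the widest range over the 4 lines of all members, 1.01, while Blm had the narrowest, 0.29.

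Differences between lines of 1 genotype exceeded the difference between the genotypes for 9 of the 13 member probes. The same count was not made over all probes, so it is not shown to be particular to the members. The widest gap between lines of 1 genotype on a member probe was 0.85, between the Ip6k1+/+ lines on Fancd2 probe A_52_P556462. The lines numbered 2 read higher than both lines numbered 1 on 9 of the 13 member probes (69.2%), as on 24.8% of all probes. They were lower on 0 of 13, as on 20.9% of all probes. The 9 probes were those of Brca1, Brca2, Fancd2, Blm, Rpa1 and Parp1, where Brca2, Fancd2 and Parp1 have 2 probes each. With 1 probe per gene, the lines numbered 2 were higher for 6 of the 9 members (66.7%). The median of the 9 members was 0.44 and 0.94 in Ip6k1+/+ MEFs and 0.80 and 1.03 in Ip6k1-/- MEFs, while the median of all genes lay between 0.38 and 0.42 on every array. The numbers only name the samples, and nothing in the labels ties lines of the same number to each other. The profiles most like that of Parp1 probe A_51_P314277, among 185 genes of the repair, cell cycle and p53 lists, were those of the checkpoint kinase gene Chek1, the spindle checkpoint kinase gene Bub1 and the exonuclease gene Exo1. After each profile was centred on its own mean, their root mean square distances from Parp1 over the 4 lines were 0.0862, 0.0997 and 0.101 on the log2 scale. Chek1 read -0.75 and -0.14 in Ip6k1+/+ lines and -0.56 and 0.28 in Ip6k1-/- lines.

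**Figure D3:**
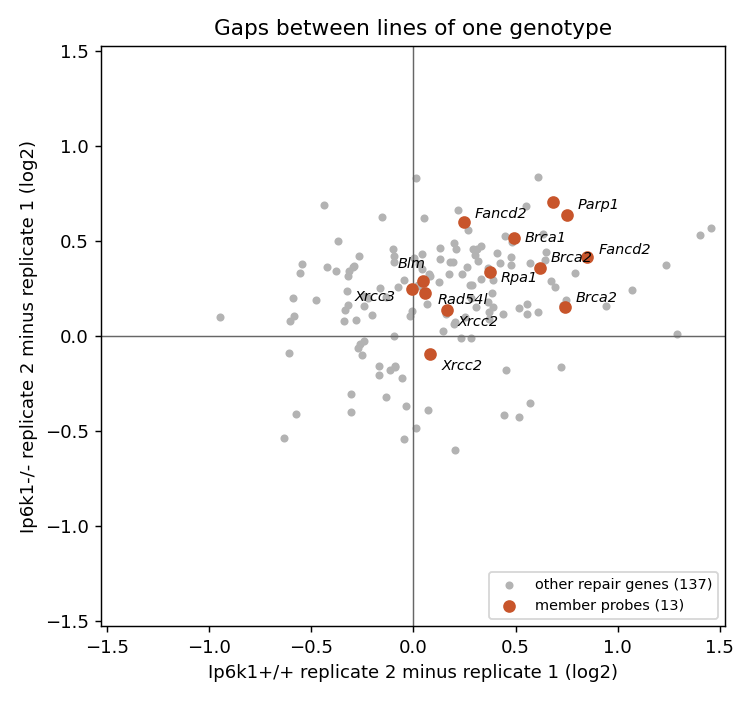
Gap between the lines of each genotype on the log2 scale, replicate 2 minus replicate 1, in Ip6k1+/+ (horizontal axis) and Ip6k1-/- MEFs (vertical axis), for 13 member probes (orange) and 137 other repair genes (grey, 1 probe per gene). Both gaps are above 0 for 11 of the 13 member probes and for 73 of the 137 other repair genes. Members with 2 tested probes are counted on both.

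Of 13 direct partners of the members, 3 (23.1%) were higher in both Ip6k1-/- lines than in both Ip6k1+/+ lines and 1 (7.69%) was lower in both, near the 18.8% and 12.6% of all probes, and 0 were called. Palb2, which links BRCA1 to BRCA2, differed by 0.41 and Bard1, the partner of BRCA1, by 0.55, both on dim probes. Fanca, of the Fanconi anaemia core complex, differed by 0.44 (limma adjusted p = 0.993 for each of the 3). These were the 3 that were separate with higher Ip6k1-/- values, whereas Rad51d, at -0.13, was separate in the opposite direction. Between the nearest Ip6k1+/+ and Ip6k1-/- lines the margin was narrow for Rad51d (-0.95 against -0.96). It was also narrow for Palb2 (-3.79 against -3.74) and Fanca (2.18 against 2.23). Rad51b and Rad51c differed by 0.14 and -0.01, the RPA subunit genes Rpa2 and Rpa3 by 0.27 and -0.03, and the genes for the helicase partners Top3a and Rmi1 by 0.02 and 0.13. Rbbp8, which starts the trimming of broken ends, differed by 0.02, Fanci, the partner of Fancd2, by -0.09, and Parp2 by 0.06. The genotypes overlapped for all 9 of these.

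The wider repair lists were measured in the same way. Of 145 other repair genes listed, 141 were on the array and 137 were tested, and 0 were called, while 4 were higher and 1 was lower at an unadjusted p of at most 0.05 (3.65% in all, beside 3.34% of all probes). In both Ip6k1-/- lines 24 of the 137 (17.5%) lay above and 11 (8.03%) below both Ip6k1+/+ lines, beside 18.8% and 12.6% of all probes, and their median difference was 0.13, with 93 higher and 44 lower. The other 43 homologous recombination genes had a median of 0.14, the 15 Fanconi anaemia genes -0.02, the 10 end joining genes 0.12, the 22 poly(ADP-ribose) and base excision genes 0.07, the 21 nucleotide excision genes 0.07 and the 7 mismatch repair genes 0.02. The 19 break signalling genes, among them Atm and Atr, had a median of 0.19. None of the 19 was separate between the genotypes, beside 18.8% above and 12.6% below over all probes. On 16 of the 19 (84.2%) both lines numbered 2 lay above both lines numbered 1, as on 24.8% of all probes.

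Single genes outside the members reached larger differences. Each is given on its brightest tested probe, and the further tested probes of Ercc8, Rad23b, Lig4, Gen1 and Polb are not reported here. Ercc8, which acts in transcription-coupled nucleotide excision repair, read 0.81 and 0.38 in Ip6k1+/+ lines and 1.32 and 1.68 in Ip6k1-/- lines, and so differed by 0.91 (limma adjusted p = 0.993, standard error 0.27). Ercc1, a subunit of the nuclease that cuts beside a lesion, read 2.88 and 2.63 against 3.57 and 3.48, a difference of 0.77 (standard error 0.20), and Rad23b, of the damage recognition complex, differed by 0.53. Of the 21 nucleotide excision genes, 4 (19%) were separate with higher Ip6k1-/- values, near the 18.8% of all probes. With lower values 0 were separate, beside 12.6% of all probes. Polq, the polymerase of microhomology-mediated end joining, a route that competes with homologous recombination, read -2.34 and -2.40 against -1.48 and -1.70, a difference of 0.78 (standard error 0.29). The end joining ligase gene Lig4 differed by 0.70, the resolvase gene Gen1 by 0.65 and the base excision polymerase gene Polb by 0.59. Among genes that were lower, Parp3, another polymerase of the PARP family, read 1.27 and 1.23 against 0.81 and 0.44, a difference of -0.62. The Parp3 probe lies on chromosome 9 at 1.57 Mb from those of Ip6k1, that of Atrip (difference -0.11) at 1.01 Mb and that of Topbp1 (difference 0.23) at 4.70 Mb, and no member lies on chromosome 9. Whether this neighbourhood bears on the values was not tested. Further genes were lower by smaller amounts, with Mnd1 at -0.47, Faap100 at -0.39, Xrcc1 at -0.34, Polm at -0.27, Recql5 at -0.25 and Fance at -0.20.

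**Figure D4:**
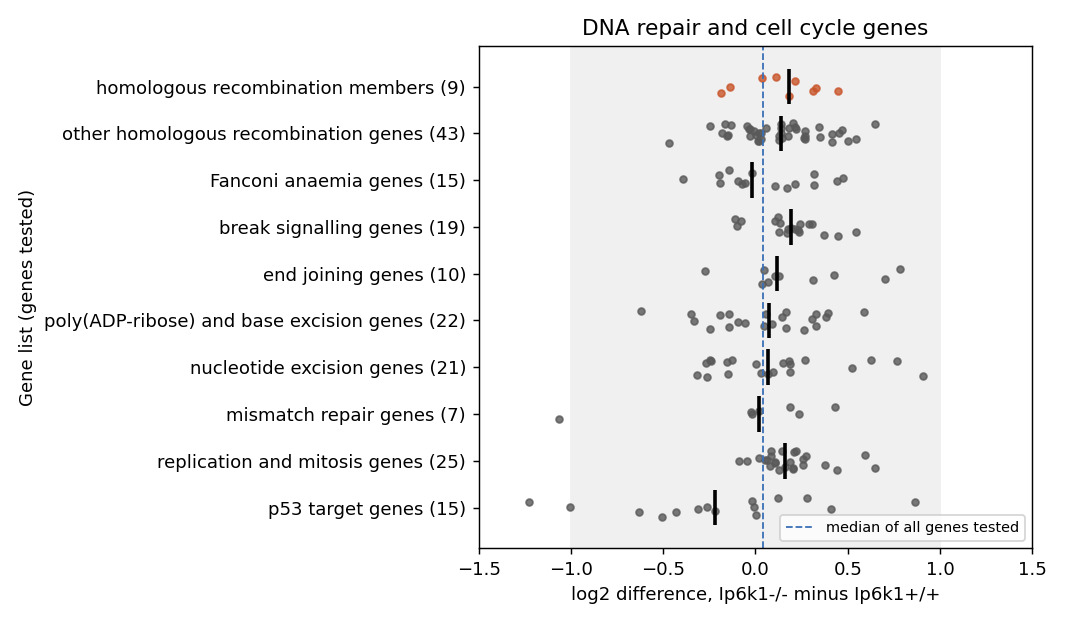
Log2 difference (Ip6k1-/- minus Ip6k1+/+) of each tested gene in the lists named on the vertical axis, 1 probe per gene, with the list's median as a black bar and the number of genes in brackets. The members (orange) lie between -0.19 and 0.45, and the dashed line marks the median of all genes tested, 0.04.

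Genes of proliferation and of the p53 response were set beside the members, since recombination genes are expressed mainly in cycling cells and large T antigen binds p53. Of 25 replication and mitosis genes, 23 were higher in Ip6k1-/- MEFs with a median of 0.16, and 8 (32%) were separate with higher Ip6k1-/- values and 0 with lower ones, beside 18.8% and 12.6% of all probes. Rrm2, a subunit of ribonucleotide reductase, read 2.66 and 2.13 in Ip6k1+/+ lines and 3.03 and 2.95 in Ip6k1-/- lines, and E2f1, a transcription factor of the replication programme, read 0.83 and 1.14 against 1.29 and 1.56. Rrm2 and E2f1 were picked after their values were seen. None of the 25 was called, and the part of proliferation in the members' levels was not tested. The 15 p53 target genes had a median of -0.22, with 5 higher and 10 lower. Of these, 2 (13.3%) were separate with lower Ip6k1-/- values and 0 with higher ones, beside 12.6% and 18.8% of all probes.

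Promoter sequence was available from RefSeq (GRCm38.p6) for 7 of the 9 members, all except Xrcc2 and Fancd2, as a window of 300 bases that ends shortly after the start. An E2F site, searched on both strands as TTTCGCGC, TTTGGCGC or TTTCCCGC, was present in Brca2 alone among the 7, at position -168 from the start as GCGGGAAA, and in 1.84% of 32851 promoters. The CCAAT box was present in Brca1, Rad54l, Xrcc3, Blm and Rpa1 and in 37.4% of all promoters. The cell cycle homology region TTTGAA was present in 0 of the 7 and in 17.9% of all. A member counted if any of its windows held the site, whereas the shares are over single windows, so the 2 are not like for like.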

How the data were processed

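RNA of 4 MEF lines was labelled with Cy3 from an oligo(dT) primer and hybridized to 4 single-colour Agilent arrays on 1 slide. The authors deposited the spot intensity on a linear scale, background-corrected by Feature Extraction 10.5.1.1, and log2 values that GeneSpring had shifted to the 75th percentile. Probe positions are those of the scanner files, on mm9.

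Here the processed signal was put on the log2 scale and the 75th percentile of the 43379 spots other than controls was subtracted on each array. Outlier spots (96 to 133 per array) were left out, and saturated spots were kept. Spots of a probe were averaged. A probe was tested where both arrays of 1 genotype or the other had it well above background, by limma 3.58.1 (R 4.3.3; lmFit, then eBayes with the trend option), two-sided, with Benjamini-Hochberg adjustment over all of them. The test was tested on simulated data. Named are all members, Ip6k1, 13 partners, the 3 nearest profiles, and the 8 largest separated differences per direction among other repair genes well above background in every line. Alternatives were another background correction, other scalings, filters, tests and probe rules, the deposited log2 values, a replicate block and each array left out in turn. Slide and scan are shared by all arrays. The members and lists were chosen with earlier results of these data known. Some genes under these rules are not reported here. The other experiments of the study were not analysed here. No genome was used, so exons were not looked up.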

Additional observations from a re-analysis of the deposited data

How the results depend on the processing

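Under every alternative 0 member probes were called and 0 members passed the 2-fold cutoff. Other repair genes were not counted under the other tests or probe and fold rules, and 0 were called under every other alternative. At an unadjusted p of at most 0.05 the count of member probes was 0 throughout, except under an ordinary Student's t-test. There it was 1, Xrcc2 probe A_52_P662752. That test gave 3.94% of all probes at this level and 0 after Benjamini-Hochberg adjustment. The replicate block left the members' median at 0.18 with 0 calls; the lines of the same number deviated together, with a correlation of 0.479 across probes, which are not independent, and with 2 pairs this does not show a pairing. The median lay between -0.01 and 0.33 with 1 line left out. The differences of Rad54l, Xrcc3 and both Xrcc2 probes kept their sign in every setting. The genotypes were separate on these probes, so leaving out a line could not change the sign. The other 9 changed sign when a line was left out. Their lowest and highest values were then -0.39 and 0.12 for Brca1 A_51_P475523, -0.20 and 0.42 for Brca2 A_51_P451106, -0.36 and 0.38 for Brca2 A_52_P513394, -0.49 and 0.11 for Fancd2 A_52_P66205, -0.32 and 0.53 for Fancd2 A_52_P556462, -0.11 and 0.18 for Blm, -0.0049 and 0.37 for Rpa1, -0.066 and 0.69 for Parp1 A_51_P314277, and -0.10 and 0.61 for Parp1 A_51_P314273. The Ip6k1 probes A_51_P213766 and A_52_P413035 lost the call, with fitted log2 differences against Ip6k1-/- signals at background, which are no bound, under normexp (-3.63 and -3.72), quantile normalization (-7.36 and -7.43) and no filter (-7.21 and -7.27), and with any line left out (-7.26 to -7.17 and -7.37 to -7.17); with only probes well above background on all arrays they have no value. The cause was not tested. Signal over background limits the Brca2 probe at the start codon and the 4 dim member probes.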
